A study of Mus musculus with 28 samples.

Results

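Transcripts of 10 genes that encode scavenger receptors and C-type lectin or collectin receptors (Stab1, Stab2, Mrc1, Lyve1, Msr1, Clec4g, Cd209b, Colec12, Scarf1 and Clec1b) were followed through mouse liver. The genes were taken by name from 33856 gene rows in each of 2 tables of unique molecular identifiers (UMIs), where 1 UMI marks 1 captured mRNA molecule, and all 10 were found in both. All animals were C57BL/6 male mice, fasted before the liver was perfused with collagenase, and the labels name no allele and no agent other than the ketamine and xylazine anaesthesia. The first table held 3720 wells with 1 non-parenchymal cell each, from 11 MARS-seq libraries of 2 mice aged 3 and 4 months. The second held 4621 wells with a hepatocyte and an attached CD31-positive cell, referred to as pairs, and came from 3 mice (6 or 7 weeks old) in 17 libraries.

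The liver sinusoid is lined by fenestrated endothelial cells that clear waste macromolecules from the blood by clathrin-mediated endocytosis, beside resident macrophages, the Kupffer cells, that clear particles. Scavenger receptors bind modified proteins, lipoproteins and polyanions, and C-type lectin receptors bind glycans, so both families mark cells that take up circulating ligands. Along the lobule, blood flows from the portal vein (periportal) to the central vein (pericentral), and the pairs address where on that path a receptor gene is expressed, because the hepatocyte of a pair gives its position.

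Kept single wells held at least 300 gene UMIs (2692 of 3720), and the median well of the table held 526.5. Pairs held between 2423 and 49311 gene UMIs, with a median of 10450. No source maps a well to its library or mouse, and the tables share 0 well names. Each table therefore counts as 1 sample, differences across mice could not be tested, and all intervals are 95% intervals that cover counting error only. Well numbers fell into 11 plate-sized blocks of single wells and 17 of pairs, and these blocks gave the only spread between groups of wells. Blocks 1 to 5 of the single wells held 500 of the endothelial-like wells, blocks 6 to 8 held 348 and blocks 9 to 11 held 20, whereas blocks 6 to 8 held 0 Kupffer-like wells.

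The stretch of 250 bases before the RefSeq start (build GRCm38.p6) was available for 6 of the 10 genes. It is printed for 4 of them, 5′ to 3′ on the strand of the gene. Stab2 (chr10:87007943-87008192, minus strand) and Clec4g (chr8:3720652-3720901, minus strand) represent the genes with high endothelial and low macrophage counts. Mrc1 (chr2:14229164-14229413, plus strand) and Clec1b (chr6:129397047-129397296, plus strand) represent the genes counted in both cell classes. Capitals mark the letters GATAA (bound by GATA factors), GAGGAA (bound by PU.1) and TGCTGA (bound by Maf factors) on either strand.
Stab2: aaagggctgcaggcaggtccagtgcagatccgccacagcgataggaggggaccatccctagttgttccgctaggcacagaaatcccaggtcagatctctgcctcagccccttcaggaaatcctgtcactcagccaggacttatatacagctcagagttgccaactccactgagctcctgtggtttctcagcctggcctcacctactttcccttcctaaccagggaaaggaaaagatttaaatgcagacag
Clec4g: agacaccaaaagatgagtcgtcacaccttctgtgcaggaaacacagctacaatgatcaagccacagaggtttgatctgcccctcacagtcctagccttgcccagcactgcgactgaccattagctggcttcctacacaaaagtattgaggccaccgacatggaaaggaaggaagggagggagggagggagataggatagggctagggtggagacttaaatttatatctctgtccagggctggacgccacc
Mrc1: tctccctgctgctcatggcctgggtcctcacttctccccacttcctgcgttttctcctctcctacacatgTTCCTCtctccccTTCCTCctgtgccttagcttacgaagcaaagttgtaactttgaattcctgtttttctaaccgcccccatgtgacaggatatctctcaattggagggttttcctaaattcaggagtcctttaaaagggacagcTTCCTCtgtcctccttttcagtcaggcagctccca
Clec1b: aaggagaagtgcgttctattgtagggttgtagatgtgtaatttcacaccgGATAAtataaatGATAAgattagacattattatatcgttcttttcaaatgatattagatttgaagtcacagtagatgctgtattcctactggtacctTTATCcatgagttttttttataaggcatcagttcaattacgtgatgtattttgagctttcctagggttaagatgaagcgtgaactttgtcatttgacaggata

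Clec1b held 3 matches of GATAA and Mrc1 held 3 of GAGGAA. Stab1, which is not printed, held 1 of GAGGAA and 1 of TGCTGA, and Stab2, Clec4g and Cd209b held 0 of the 3 motifs in this window. A TGCTGA can share its last bases with a following GATAA or GAGGAA. Among all 32851 promoters of this length, 22.6% held GATAA, 23.3% GAGGAA and 16.1% TGCTGA, so matches of these short motifs are common and are given as a description of the letters only.

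Single wells were grouped by clustering without the receptor genes, so the receptors did not define the classes. The 868 endothelial-like wells had 24 of 24 endothelial markers raised, and the 292 Kupffer-like wells had 9 of 9 Kupffer markers raised. The 159 conventional dendritic-like wells came from 2 clusters of 142 and 17 wells, and the monocyte gene F13a1 stood among the leading genes of the larger cluster. Levels are UMIs per 1000000 gene UMIs summed over a class. A gene was called when its ratio was at least 2-fold, its interval excluded 1 and both classes together held at least 30 UMIs.

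Stab1, Stab2, Lyve1, Clec4g and Scarf1 were more abundant in endothelial-like wells than in either myeloid class, while Mrc1, Msr1 and Clec1b were also abundant in Kupffer-like wells. The 10 genes together made up 1.18% of all gene UMIs in endothelial-like wells, 0.272% in Kupffer-like wells, 0.0199% in dendritic-like wells and 0.0288% in T-like wells. Of 8 genes with enough UMIs, 5 were called higher in endothelial-like than in Kupffer-like wells (Stab1, Stab2, Lyve1, Clec4g and Scarf1) and 0 lower. The background of that comparison was 24.3% of 6119 genes called higher and 13.7% called lower. Against dendritic-like wells, 8 of 8 were called higher, beside 30.4% of 5781 genes called higher and 18.4% called lower. Cd209b and Colec12 were under the minimum in both comparisons.

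The stabilins are large receptors for hyaluronan and other polyanions on sinusoidal endothelium. Stab1 had 547 UMIs in endothelial-like, 33 in Kupffer-like and 5 in dendritic-like wells, that is levels of 918 (interval 842 to 998), 90.8 (62.5 to 128) and 18.8 (6.09 to 43.8). It was 10.1-fold higher than in Kupffer-like wells (log2 ratio 3.34, interval 2.83 to 3.89) and 48.9-fold higher than in dendritic-like wells. Stab2 had 860, 49 and 0 UMIs, and levels of 1443 (1348 to 1543) in endothelial-like and 135 (99.7 to 178) in Kupffer-like wells. It was 10.7-fold higher than in Kupffer-like wells (log2 ratio 3.42, interval 3.00 to 3.87). Against dendritic-like wells it was at least 128-fold higher, taking 3 counts over the class as the floor. Over the 8 blocks with at least 20 wells of a class, Stab1 ranged from 560 to 1150 in endothelial-like and from 31.8 to 221 in Kupffer-like wells, and Stab2 from 1111 to 1744 and from 0 to 238. The blocks were partly different ones for the 2 classes, since blocks 6 to 8 held 0 Kupffer-like wells. How often such ranges stay apart over all genes was not counted.

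Lyve1, a hyaluronan receptor of lymphatic and sinusoidal endothelium, had 1365 UMIs in endothelial-like, 14 in Kupffer-like and 5 in dendritic-like wells. Its levels were 2290 (2171 to 2415), 38.5 (21.1 to 64.6) and 18.8, a difference of 59.5-fold against Kupffer-like wells (log2 ratio 5.89, interval 5.14 to 6.77) and 122-fold against dendritic-like wells. Lyve1 varied widely between blocks of endothelial-like wells, from 1008 to 3363 with a median of 2216. It was lower in blocks 6 to 8 (1532, interval 1362 to 1719) than in blocks 1 to 5 (2716, interval 2555 to 2884). Clec4g, the lectin LSECtin named for liver sinusoidal endothelium, had 2291, 12 and 13 UMIs in the 3 classes. Its levels were 3844 (3688 to 4005), 33.0 (17.1 to 57.7) and 48.8, that is 116-fold above Kupffer-like wells (log2 ratio 6.86, interval 6.06 to 7.82) and 78.8-fold above dendritic-like wells. Clec4g spanned 2996 to 5071 over blocks of endothelial-like wells and 0 to 95.5 over blocks of Kupffer-like wells.

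Scarf1, a receptor for modified lipoproteins on endothelial cells, had 70 UMIs in endothelial-like, 9 in Kupffer-like and 1 in dendritic-like wells. Its level was 117 (91.6 to 148) against 24.8 (11.3 to 47.0) in Kupffer-like wells, 4.74-fold higher (log2 ratio 2.25, interval 1.24 to 3.43). Against the 1 UMI of dendritic-like wells the log2 ratio of Scarf1 was 4.97 (interval 2.44 to 10.29). Over blocks, Scarf1 ranged from 60.5 to 194 in endothelial-like and from 0 to 45.8 in Kupffer-like wells.

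The other 3 measured genes were also abundant in Kupffer-like wells. Mrc1, the macrophage mannose receptor, had 1440 UMIs in endothelial-like, 522 in Kupffer-like and 7 in dendritic-like wells. Its levels were 2416 (2293 to 2544), 1436 (1316 to 1565) and 26.3, so that it was 1.68-fold higher in endothelial-like than in Kupffer-like wells (log2 ratio 0.75, interval 0.60 to 0.90) and 92.0-fold higher than in dendritic-like wells. The block ranges overlapped, at 1931 to 2827 and 856 to 2291. Msr1, the class A scavenger receptor of macrophages, had 166, 140 and 16 UMIs, at levels of 279 (238 to 324), 385 (324 to 455) and 60.0. The log2 ratio of endothelial-like over Kupffer-like wells was -0.47 (interval -0.80 to -0.13), and over dendritic-like wells Msr1 was 4.64-fold higher. Clec1b, the podoplanin receptor CLEC-2 known best from platelets, had 273, 204 and 5 UMIs, at levels of 458 (405 to 516), 561 (487 to 644) and 18.8. Its log2 ratio against Kupffer-like wells was -0.29 (interval -0.56 to -0.02), under the 2-fold call, and against dendritic-like wells it was 24.4-fold higher. The block ranges of Msr1 (77.6 to 616 and 242 to 541) and of Clec1b (257 to 628 and 400 to 1018) overlapped between endothelial-like and Kupffer-like wells.

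Cd209b and Colec12 were near the limit of detection in single wells. Cd209b, a mouse relative of DC-SIGN, had 7 UMIs in endothelial-like, 0 in Kupffer-like and 1 in dendritic-like wells, and a level of 11.7 (4.72 to 24.2) in endothelial-like wells. Against the 0 UMIs of Kupffer-like wells the lower limit of its log2 ratio was -0.19, so these counts allow no difference. Its ratio to the dendritic-like level had a log2 value of 1.65 (interval -1.31 to 7.14). Colec12, a collectin scavenger receptor with a collagen-like stalk, had 13, 7 and 0 UMIs. Its levels of 21.8 (11.6 to 37.3) in endothelial-like and 19.3 (7.74 to 39.7) in Kupffer-like wells gave a log2 ratio of 0.18 (interval -1.25 to 1.75), and the fold over dendritic-like wells was at least 1.94. The count of Cd209b is uncertain, because close paralogs can share its reads.

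**Figure D1:**
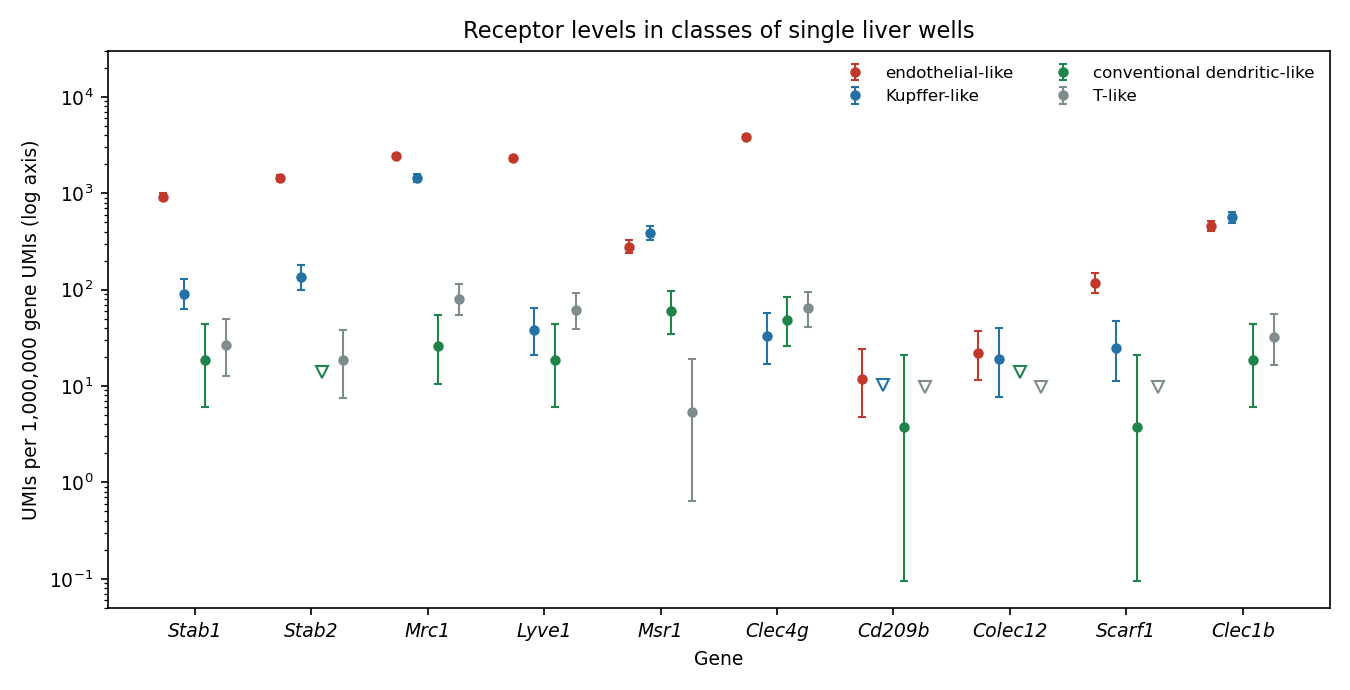
Levels of the 10 receptor genes (log axis, UMIs per 1000000 gene UMIs) in endothelial-like, Kupffer-like, conventional dendritic-like and T-like wells, with exact 95% Poisson intervals as bars. Open triangles stand at the upper limit where a class held 0 UMIs. Mrc1, Msr1 and Clec1b have Kupffer-like points close to the endothelial-like ones, and Clec4g and Lyve1 have them far below.

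Endothelial RNA in wells of other classes was measured with the endothelial markers. In Kupffer-like wells these 24 markers stood at a median of 1.58% of their endothelial level (range 0.665% to 49.2%), and in dendritic-like wells at 1.16%. Stab1 and Stab2 in Kupffer-like wells stood at 9.89% and 9.34% of their endothelial level, Lyve1 at 1.68% and Clec4g at 0.859%. In the 112 Kupffer-like wells with 0 endothelial marker UMIs, Mrc1 was at 1107 (914 to 1329), Clec1b at 520 (391 to 678) and Msr1 at 472 (349 to 624), and Stab1 (67.4) and Stab2 (106) kept 7 and 11 UMIs. Conversely, in the 618 endothelial-like wells with 0 Kupffer marker UMIs, Msr1 was at 258 (211 to 313), Mrc1 at 2347 and Clec1b at 446. Scarf1 in Kupffer-like wells without endothelial markers rested on 1 UMI, which raised its log2 ratio to 3.61.

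Detection per well was read against T-like wells, which should lack these receptors. The median well held 568 UMIs in the endothelial-like, 901 in the Kupffer-like, 1366 in the dendritic-like and 1017 in the T-like class. At full depth Clec4g had a UMI in 79.7% of endothelial-like and 5.07% of T-like wells, and with each well thinned to 300 UMIs in 60.6% and 2.69%. Mrc1 was detected in 45.3% of endothelial-like and 32.5% of Kupffer-like wells after thinning (63.4% and 56.2% before), beside 2.69% of T-like wells. Thinned shares of Lyve1 were 32.1% in endothelial-like, 1.37% in Kupffer-like and 2.99% in T-like wells (43.9%, 3.42% and 4.78% before), so the Kupffer-like share lay at the background. Msr1 was found in 6.11% of endothelial-like and 9.25% of Kupffer-like wells after thinning (10.6% and 26.0% before) and in 0.299% of T-like wells. Thinning left out 0 wells, since kept wells had at least 300 UMIs.

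Endothelial-like wells commonly held several of the receptors at once. The median endothelial-like well had a UMI of 3 of the 10 genes, 62.6% of wells had at least 3 and 3.69% had 0. With wells thinned to 300 UMIs, 35.0% of endothelial-like, 2.05% of Kupffer-like and 0% of T-like wells had at least 3. Among thinned endothelial-like wells with a Clec4g UMI, 35.9% (interval 31.8 to 40.2) also had Lyve1, against 26.3% (21.7 to 31.3) of those without Clec4g. Stab2 was found in 35.6% (28.6 to 43.0) of wells with Stab1 and in 27.2% (23.9 to 30.7) of wells without it, with intervals that overlap. Msr1 and Mrc1 went the other way, with Mrc1 in 34.0% (21.5 to 48.3) of the 53 wells with Msr1 and in 46.0% (42.6 to 49.5) of the 815 without, and those intervals overlap too.

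Over the 10 clusters with at least 20 wells, 5113 genes were ranked by Pearson correlation of log2(level + 10) with each receptor. The values describe shared clusters and carry no test. Clec4g was most like Igfbp7 (r = 0.97) and Gpihbp1 (0.97), Lyve1 most like Cyp4b1 (0.96) and Fabp4 (0.95), Stab1 most like Cpd (0.94) and Arhgef15 (0.93), and Stab2 most like Tfpi (0.92) and Flt4 (0.91). Mrc1 was most like Dab2 (0.96), which encodes a clathrin adaptor, and Rxra (0.95), Msr1 most like Zfhx3 (0.97) and Cttnbp2nl (0.97), and Clec1b most like Slc29a1 (0.95) and Tpp1 (0.94).

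Other scavenger receptors, lectins and clearance receptors were more often called higher in Kupffer-like than in endothelial-like wells, with 9 of 33 measured genes called higher and 18 lower in endothelial-like wells. Over all genes 24.3% were called higher and 13.7% lower, so the count of higher genes is near the background and the count of lower genes is above it. Of 8 measured scavenger receptors outside the 10, Cd36, a fatty acid translocase, was called higher in endothelial-like than Kupffer-like wells and 5 were called lower (Marco, Scarb1, Cd163, Cd68 and Lrp1), with a median log2 ratio of -2.80 beside 0.23 over all genes tested. Cd36 was at 790 against 77.0 (10.3-fold), the particle receptor Marco at 10.1 against 567 and the haemoglobin scavenger receptor Cd163 at 16.8 against 913. Scarb1, the receptor for high-density lipoprotein, was at 83.9 against 176. Against dendritic-like wells Cd36 (5.14-fold) and the lysosomal receptor Scarb2 (2.24-fold) were called higher, Cd68 and Lrp1 were called lower (2 and 2 of 6 measured, beside 30.4% and 18.4% of all genes), and Cxcl16 had 255 against 473.

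Among 15 measured C-type lectins, 6 were called higher in endothelial-like than Kupffer-like wells (Clec14a, Cd93, Clec2d, Pla2r1, Colec10 and Clec9a) and 8 lower (Clec4f, Clec4a1, Clec4a2, Clec4a3, Clec4n, Clec7a, Clec12a and Cd302), with a median log2 ratio of -1.76. Over all genes 24.3% were called higher and 13.7% lower in that comparison. Clec14a, an endothelial adhesion lectin, was at 951 against 22.0 (43.2-fold) and Cd93 at 450 against 135 (3.34-fold). Clec12a had 1 UMI and Clec4a3 had 1 UMI in endothelial-like wells, against 131 and 103 in Kupffer-like wells. Clec9a, at 27 UMIs against 4, overlaps Clec1b on the same strand of the genome, so reads of the 2 genes may not be separable. Against dendritic-like wells 6 were called higher, with Clec14a 127-fold and Cd93 6.31-fold higher, and 7 lower (Clec4a1, Clec4a2, Clec4a3, Clec7a, Clec9a, Clec12a and Cd209a). The background there was 30.4% higher and 18.4% lower, and the median log2 ratio was -0.45, beside 0.33 over all genes. The calls of genes lower than in dendritic-like wells rest on few UMIs. Over all the other lists they numbered 10, and 1 with at least 500 UMIs per well and 0 with wells thinned to 300 UMIs or with a minimum of 100 UMIs. Genes higher than in dendritic-like wells numbered 17 over those lists, and 8 with at least 500 UMIs per well or with thinning.

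Of 10 measured clearance receptors 2 were called higher in endothelial-like than Kupffer-like wells, Fcgr2b and Sort1, and 5 lower (Vsig4, Timd4, Axl, Cd14 and Siglec1). Over all genes 24.3% were called higher and 13.7% lower, so the count of higher genes is near the background. Fcgr2b, an inhibitory receptor for immune complexes on sinusoidal endothelium, had 1241 UMIs against 23 (32.9-fold higher). Sort1 was at 65.4 against 2.75, which rests on 39 UMIs against 1. The complement receptor Vsig4 was at 21.8 against 1962, and the phosphatidylserine receptor Timd4 at 8.39 against 891. The neonatal Fc receptor Fcgrt (727 against 451) was 1.61-fold higher in endothelial-like wells, and Mertk was at 404 against 561. Against dendritic-like wells 4 of 5 were called higher, with Mertk 21.6-fold and Fcgr2b 8.95-fold higher, and Axl lower. Over all genes 30.4% were called higher and 18.4% lower there. The counts of other receptor genes called depend on depth and on the minimum count, as given in the closing section.

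Most genes of clathrin-mediated uptake were not called. Among 20 measured genes 2 were called higher in endothelial-like than Kupffer-like wells (Dab2 and Cltb) and 0 lower, beside 24.3% and 13.7% of all genes, with a median log2 ratio of 0.23, equal to that over all genes. Dab2 was at 448 against 215 (2.09-fold), Ap2s1 was 1.84-fold higher, and the clathrin heavy chain gene Cltc was at 581 against 374. The light chain gene Clta was at 448 against 537, Picalm 1.51-fold higher in Kupffer-like wells and Epn1 1.49-fold. Against dendritic-like wells 5 were called higher (Dab2, Cltc, Ap2a2, Dnm2 and Eea1) and 0 lower, a share of the 20 below the 30.4% of all genes called higher. Dab2 was 23.9-fold and the early endosome gene Eea1 3.35-fold higher there.

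In the pairs, positions came from 13 pericentral and 12 periportal hepatocyte landmark genes, none of them a receptor of the list. The outer tertiles of the score gave 1540 pericentral and 1541 periportal pairs. Median scores were 0.344 to 0.460 in the blocks numbered 1 to 9 and 41, and 0.523 to 0.642 in blocks 10 to 16. The pooled zones thus draw unequally on the blocks, and pooled ratios partly compare blocks. Directions counted over blocks below use zones taken within each block. A gene was counted as endothelial when its level in endothelial-like single wells was at least 10 and accounted for at least 50% of its level in pairs. That level also had to be exceeded by no other named class, with the hepatocyte-like class left out of the comparison. The 7 receptor genes that met this are given per 1000000 UMIs of 655 other endothelial genes. Msr1 and Clec1b, which were higher in Kupffer-like wells, and Colec12 are given per 1000000 of all gene UMIs without landmarks. Endothelial genes made up 0.396% of UMIs without landmarks in pericentral and 0.466% in periportal pairs, so log2 ratios on the all-UMI scale lie 0.24 below those on the endothelial scale. In a pair, fewer attached cells and less RNA per cell cannot be told apart on the all-UMI scale.

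Msr1 had a steep gradient along the lobule. It had 18 UMIs in pericentral and 157 in periportal pairs, levels of 0.992 and 9.47, and was 9.55-fold higher in periportal pairs (log2 ratio -3.26, interval -4.05 to -2.55, and -3.02 on the endothelial scale). Over 6 position bins of about 770 pairs from periportal to pericentral, Msr1 had 95, 62, 36, 25, 14 and 4 UMIs, falling at each step. Msr1 was the single gene of 9 tested that was called, and 0 were called higher in pericentral pairs. The position of Msr1 was known from earlier results of these data when the genes were chosen. Its call is therefore a description and no separate evidence. The background on the all-UMI scale was 2.26% of 11427 genes called higher in periportal and 2.92% in pericentral pairs. On the endothelial scale it was 4.14% and 3.92% of 459 genes. With zones taken within each block, 11 of 11 blocks with at least 10 Msr1 UMIs had more in periportal pairs, and the pooled log2 ratio within blocks was -2.89. The log2 ratio was -2.25 with pairs split at the median score and -4.74 between the outer sixths.

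Kupffer-cell markers other than Slc40a1 had 180 UMIs in pericentral and 184 in periportal pairs (9.24 and 9.90 per 1000000 UMIs). This is a sum over 8 genes that went in both directions. With Slc40a1 the 9 markers had 1133 UMIs in pericentral and 1499 in periportal pairs (58.2 and 80.7 per 1000000 UMIs), of which the iron exporter gene Slc40a1, which hepatocytes also express, gave 953 and 1315. Adgre1 had 0 UMIs in both zones, Csf1r 6 and 9, Cd5l 14 and 36, C1qa 9 and 23, C1qc 16 and 25, and Folr2 1 and 4. In contrast, C1qb (43 and 27) and Fcna (91 and 60) were higher in pericentral pairs, and they gave much of the pericentral sum. Of other Kupffer genes, Clec4f had 7 and 22 UMIs, Marco 4 and 9, Vsig4 2 and 7, and Timd4 0 and 4. Whether Kupffer-cell RNA differed between the zones was not tested. Without pairs that held at least 2 UMIs of Kupffer markers other than Slc40a1, the log2 ratio of Msr1 was -3.31. These markers held 180 and 184 UMIs over 1540 pericentral and 1541 periportal pairs, so a pair with Kupffer-cell RNA could pass this filter. The cell source of Msr1 in the pairs was not tested.

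Lyve1 was highest between the periportal edge and the middle of the lobule. It had 575 UMIs in pericentral and 954 in periportal pairs, 1.54-fold higher in periportal pairs (log2 ratio -0.62, interval -0.78 to -0.47, and -0.86 on the all-UMI scale). Over the 6 bins its level per 1000000 endothelial UMIs was 9867, 14760, 14636, 12738, 9905 and 5958, so that bins 2 and 3 exceeded the portal edge itself and the pericentral bin was lowest. The interval of the first bin (8895 to 10917) did not reach that of the second (13581 to 16014). Within blocks, 13 of 16 had the pooled direction, with block log2 ratios from -1.70 to 0.94.

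Clec4g, with a smaller difference in the same direction, had 1338 UMIs in pericentral and 1749 in periportal pairs (log2 ratio -0.28, interval -0.38 to -0.18, and -0.52 on the all-UMI scale). Its level lay between 20480 and 23034 per 1000000 endothelial UMIs over the first 5 bins and was 16716 (15381 to 18136) in the pericentral bin. The direction was the pooled one in 13 of 17 blocks. Clec1b had 188 and 255 UMIs, a log2 ratio of -0.57 (interval -0.85 to -0.29) on the all-UMI scale and -0.33 (interval -0.61 to -0.06) on the endothelial scale. On the all-UMI scale it was higher in periportal pairs in 13 of 15 blocks, and with each pair thinned to 2000 UMIs its log2 ratio was -0.13. Blocks 6, 8, 9, 10 and 41 had log2 ratios between -0.23 and -0.04, smaller than the pooled shift of 0.24 between the scales. Block directions of Clec1b were not counted on the endothelial scale, so the block count does not carry over to it.

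The stabilins and Mrc1 were not called by position. Stab1 had 462 and 490 UMIs (log2 ratio 0.02, interval -0.16 to 0.21), with 8 of 16 blocks in the pooled direction. Mrc1 had 994 and 1138 (log2 ratio -0.09, interval -0.21 to 0.04), with 9 of 16 blocks. Stab2 had 620 and 545, a log2 ratio of 0.29 (interval 0.12 to 0.46) on the endothelial scale but 0.06 (interval -0.11 to 0.22) on the all-UMI scale, so that the sign was the same while the interval included 0 on the all-UMI scale alone. Its 6 bins held levels of 7243, 6844, 8425, 8809, 9287 and 7953 per 1000000 endothelial UMIs, lowest near the portal side and highest in the fifth bin. Scarf1 had 92 and 83 UMIs (log2 ratio 0.26, interval -0.19 to 0.70), and Cd209b had 3 and 5, too few to compare. The 6 measured genes on the endothelial scale had a median log2 ratio of -0.03, beside -0.01 over the 459 endothelial genes.

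**Figure D2:**
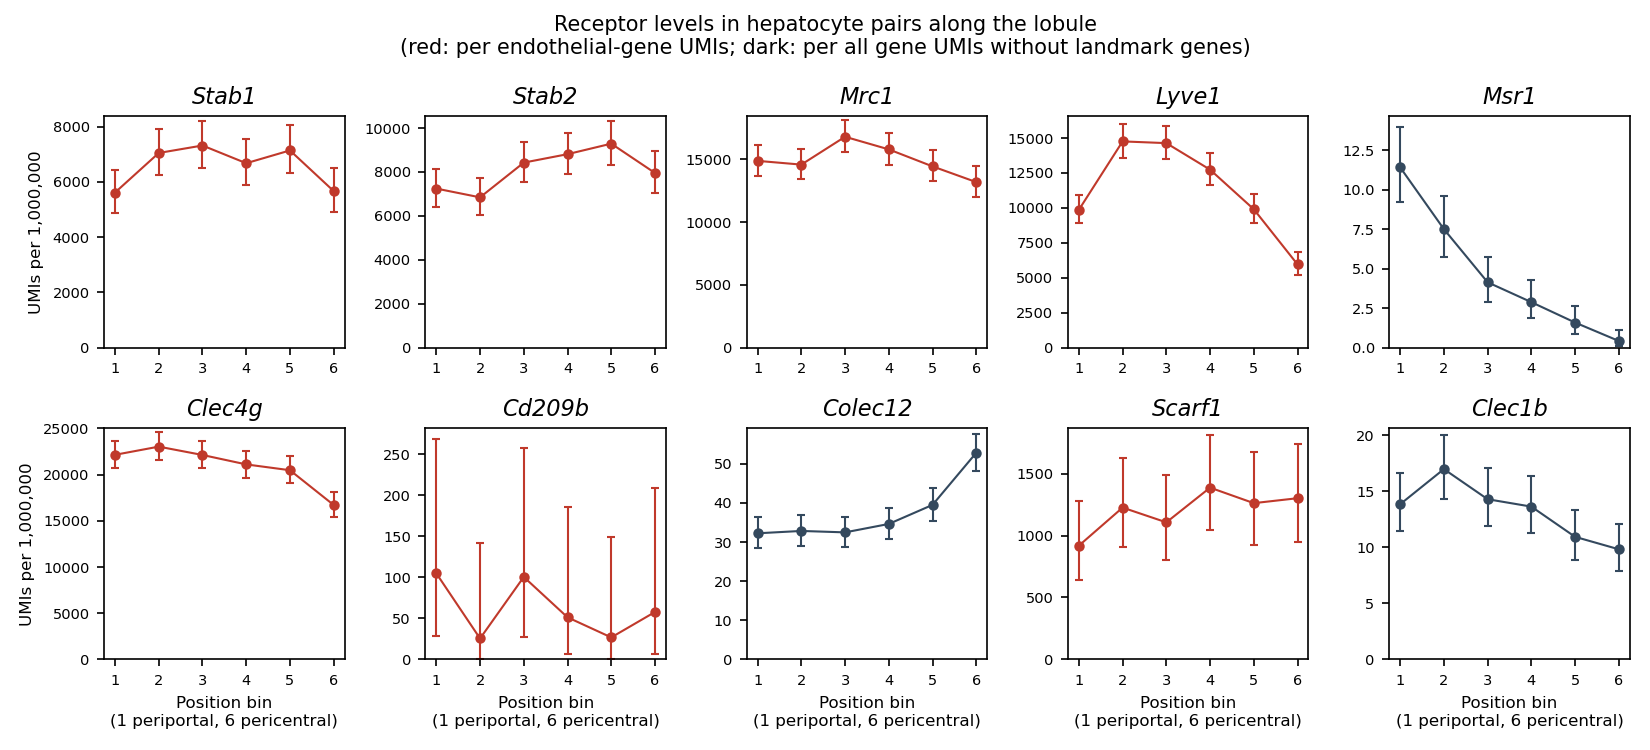
Levels of the 10 receptor genes in 6 bins of pairs ordered from periportal (1) to pericentral (6), in UMIs per 1000000 endothelial-gene UMIs (red) or per 1000000 of all gene UMIs without landmarks (dark), with exact 95% Poisson intervals. Msr1 falls from 95 UMIs in bin 1 to 4 in bin 6, Colec12 is highest in bin 6, and Lyve1 is highest in bins 2 and 3. Each panel has its own vertical scale from 0.

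Colec12 counts in pairs were far above what the endothelial RNA of the pairs accounted for. The gene had 1963 UMIs in pairs, in 1443 of 4621 wells, at 34.5 per 1000000 gene UMIs. Its level in single endothelial-like wells, with endothelial RNA at 2.31% of a pair, leads to 0.504 per 1000000, so the measured level was 68.4-fold higher and 1.46% of it was accounted for. For the other 9 genes the measured level was between 0.644 (Msr1) and 1.77 (Scarf1) times that value. The 31 hepatocyte-like single wells held 1 UMI of Colec12 in 25165, a level of 39.7 with an interval from 1.01 to 221. The pairs and the single cells came from mice of different ages, and this is not separated here.

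Colec12 was higher in pericentral pairs, with 842 UMIs in pericentral and 539 in periportal pairs, a 1.43-fold difference (log2 ratio 0.51, interval 0.36 to 0.67, and 0.75 on the endothelial scale). Over the bins it had 268, 271, 282, 300, 347 and 495 UMIs, flat on the periportal side and highest in the pericentral bin (52.8 per 1000000, interval 48.3 to 57.7, against 32.2, interval 28.5 to 36.3, in the first). In 15 of 16 blocks it was higher in pericentral pairs, with block log2 ratios between -0.10 and 1.07.

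Pairs were also compared by how much endothelial RNA they held, between the outer tertiles of the share of endothelial UMIs. Rich pairs had a 3.33-fold higher share (0.727% against 0.218%), and they were shallower, with a median of 7006 UMIs against 13909. Lyve1 was 4.51-fold higher in rich pairs (1230 against 499 UMIs), Stab2 3.85-fold, Mrc1 3.66-fold, Stab1 3.53-fold, Msr1 3.52-fold, Scarf1 3.31-fold, Clec4g 3.28-fold and Clec1b 2.93-fold. Colec12 had 411 UMIs in rich and 889 in poor pairs, levels of 34.1 and 40.3 per 1000000, and a log2 ratio of -0.24 (interval -0.41 to -0.07). With tertiles taken within the 6 position bins that log2 ratio was -0.14 (interval -0.31 to 0.03), while Lyve1 had 2.07 and Msr1 1.49. Stab1, Stab2, Mrc1, Lyve1, Clec4g and Scarf1 met the endothelial rule, and 91.3% of the 462 genes that met it were called higher in rich pairs (0.0% in poor pairs), so their calls follow from how the pairs were chosen and nothing is read from them. Of the 3 receptors that did not meet it, Msr1 and Clec1b were called higher in rich pairs and Colec12 was not called. Among all 10935 such genes, 3.77% were called higher in rich and 0.155% in poor pairs. Msr1 and Clec1b failed the rule through their higher level in Kupffer-like wells. Endothelial RNA accounted for 155% and 88.0% of their level in pairs. Their calls thus also follow from how the pairs were chosen, and nothing is read from them.

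**Figure D3:**
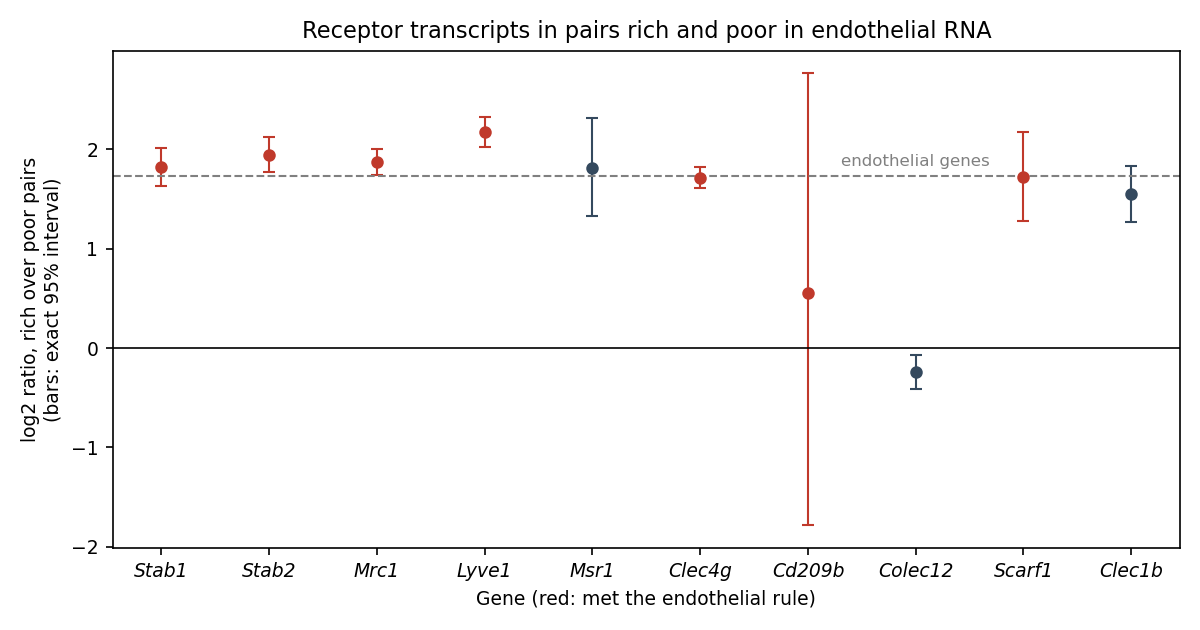
Log2 ratio of each receptor gene between pairs rich and poor in endothelial RNA, with exact 95% intervals. The dashed line marks the log2 ratio of the endothelial genes themselves, 1.73. Colec12 lies at -0.24 and Cd209b, with 4 and 5 UMIs, has a wide interval, while the other 8 genes lie between 1.55 and 2.17.

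Of 6 measured scavenger receptors and 10 C-type lectins 0 were called, and of 7 clearance receptors 1 was, the sorting receptor Sort1, with 317 UMIs in pericentral and 126 in periportal pairs (2.30-fold higher, log2 ratio 1.20, interval 0.90 to 1.51). None of the 21 clathrin and endosome genes was called. Over all genes 2.92% were called higher in pericentral and 2.26% in periportal pairs on the all-UMI scale. On the endothelial scale the shares were 3.92% and 4.14%, so the counts of these lists are near the background. Among clathrin and endosome genes with at least 100 UMIs, Rab5a (1.42-fold) and Cltb (1.28-fold) had the largest folds toward the pericentral zone. Scara5, a ferritin receptor, was 1.79-fold higher in pericentral pairs and Lrp1 1.10-fold, while Cxcl16 was 1.53-fold and Scarb2 1.29-fold higher in periportal pairs. The collectin genes Colec10 (1.61-fold) and Colec11 (1.58-fold) were higher in periportal pairs, opposite in sign to Colec12. Fcgr2b was 1.30-fold higher in periportal pairs on the endothelial scale (log2 ratio -0.38), and Cd93 had a log2 ratio of 0.11 (interval -0.15 to 0.37). Igf2r (1.17-fold pericentral), Asgr1 (1.05-fold pericentral), Eps15 (1.17-fold periportal) and Ap2a2 (1.10-fold periportal) had smaller folds.

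Single endothelial-like wells were then placed by their own landmark genes, 7 pericentral (such as Wnt2 and Rspo3) and 6 periportal (such as Dll4 and Ltbp4). These landmarks rest on earlier results from the same pairs, so this is a description in other cells rather than separate evidence. Of 868 wells 470 had at least 3 landmark UMIs, and the outer groups held 129 pericentral and 184 periportal wells. Msr1 had 4 UMIs in 3 pericentral wells and 69 UMIs in 34 periportal wells, with at most 9 in 1 well, and a log2 ratio of -3.65 (interval -5.57 to -2.23). It was the single gene called of 8 with at least 30 UMIs, beside 4.26% of 1831 genes called higher in periportal and 4.42% in pericentral wells. The direction was the same in blocks 1 to 5 (3 against 42 UMIs, log2 ratio -3.50) and in blocks 6 to 8 (1 against 15, log2 ratio -3.92). In blocks 6 to 8 these counts were under the minimum of 30 UMIs for a call. Kupffer markers had 59 UMIs in pericentral and 92 in periportal wells, out of 105433 and 144500. With wells split at the median score the log2 ratio of Msr1 was -1.86.

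Lyve1 had 194 UMIs in 48 pericentral wells and 401 in 88 periportal wells (log2 ratio -0.59, interval -0.85 to -0.34), with -0.54 in blocks 1 to 5 and -1.16 in blocks 6 to 8. Stab2 had 173 and 177 UMIs (log2 ratio 0.42, interval 0.11 to 0.73), with 0.36 and 0.89 in those blocks. Clec4g (-0.16, interval -0.35 to 0.03), Stab1 (0.14, interval -0.26 to 0.54), Mrc1 (0.04, interval -0.20 to 0.28) and Scarf1 (0.38, interval -0.64 to 1.39) had intervals that include 0. Clec1b differed in sign from the pairs, with 57 UMIs in pericentral and 50 in periportal wells (log2 ratio 0.64, interval 0.07 to 1.22), and 0.47 (interval -0.16 to 1.11) and 1.36 (interval -0.22 to 3.20) in the 2 sets of blocks. The difference between the Clec1b values in pairs and in single wells was not tested. Colec12 (1 and 0 UMIs) and Cd209b (2 and 1) were too few to compare.

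**Figure D4:**
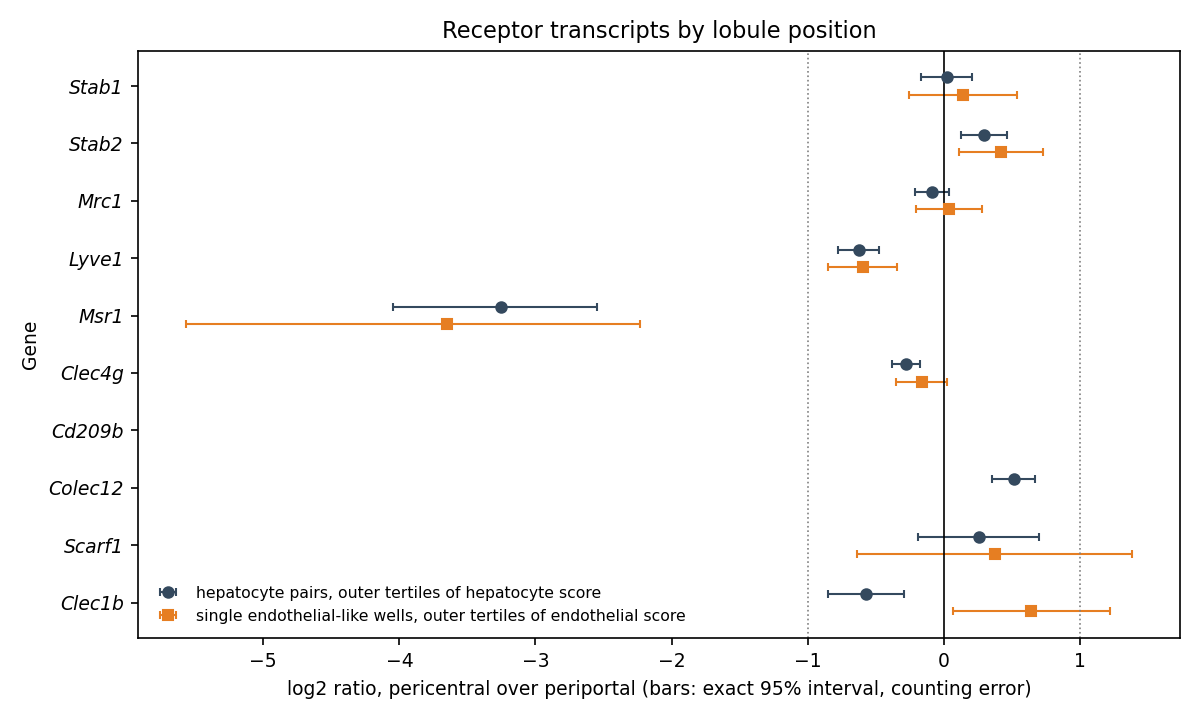
Log2 ratio of pericentral over periportal levels for each receptor gene in pairs (dark circles) and in single endothelial-like wells (orange squares), with exact 95% intervals. Dotted lines mark 2-fold, and genes with under 30 UMIs over both groups are left out. Msr1 lies at -3.26 and -3.65, Lyve1 at -0.62 and -0.59, and Clec1b at -0.57 in pairs and 0.64 in single wells.

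Some counts are uncertain because genes overlap and the strand of counting is not given in the sources used here. Stab1 overlaps Nt5dc2 on the other strand, Clec1b overlaps Clec9a, and annotated transcripts also lie across Stab2, Clec4g and Mrc1.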

How the data were processed

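MARS-seq 3' end libraries of single non-parenchymal wells and of hepatocyte pairs gave 2 deposited tables of counts, raw UMIs for each gene symbol in each well that the authors did not normalize. bcl2fastq 2.15.0.4 and genome build mm9 are named in the submitters' processing notes. The aligner is not given in the sources used here, nor is the annotation. The 92 ERCC rows (52.8% and 0.715% of UMIs) were left out of all totals, as were 68 symbols equal but for letter case.

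The 10 genes, the other lists and the landmarks were chosen with earlier results of these data known, including the position of Lyve1, Stab2, Msr1 and Colec12. Wells with at least 300 UMIs were scaled to 1000, log-transformed, reduced to 30 components (from 2000 variable genes), then clustered with Leiden (15 neighbours, resolution 1.0; scanpy 1.11.5, leidenalg 0.10.2) without the receptor and endocytosis genes. A cluster took a name when at least 3 of its markers were 2-fold raised. No doublet caller was run. Pairs were scored from landmark UMIs, each sum divided by its mean over pairs, with limits at 0.303 and 0.608 and 1025 pairs within 0.05 of a limit. Alb gave 86.5% of periportal landmark UMIs. Intervals are exact Poisson or conditional binomial (scipy 1.17.1), and a class at 0 was given a floor of 3 counts. The zone comparison was also run on simulated Poisson counts with known folds, which checks the calculation only. Those counts held no variation between pairs, blocks or mice, so nothing is read from them about such variation in the real zones.

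Without a map from wells to mice no test across animals was made, so levels and ratios stand in for one. Named genes were the 10 receptors and, from each other list, the 4 with the highest level in endothelial-like wells and the 2 with the largest fold in each direction (at least 100 UMIs), and for each receptor with at least 100 UMIs the 2 genes most like it. Other genes of the lists that the text names were chosen after their values were seen, as members of a count, and 1 gene that the rule names is not reported here. Alternatives changed the depth and count minimums, clustering, denominators, zones, blocks and fold.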

Additional observations from a re-analysis of the deposited data

How the results depend on the processing

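The counts of receptor genes called (5 and 8 in the class comparisons, 1 in the zones of pairs and 1 in single wells by position) ranged over 4 to 6, 7 to 8, 1 to 2 and 1 to 3 under the alternatives run. The zone counts moved at 1.5-fold alone, to 2 in pairs (with Lyve1) and to 3 in single wells (with Lyve1 and Clec1b). Counts of the 77 other receptor and endocytosis genes moved more. Those higher in endothelial-like than Kupffer-like wells numbered 11, and 7 with wells gated by markers, 7 with wells thinned to 300 UMIs, 6 in blocks 6 to 11, 5 with a minimum of 100 UMIs and 17 at 1.5-fold. Those higher than in dendritic-like wells numbered 17, and 8 with at least 500 UMIs per well and 8 with thinning. Those lower than in dendritic-like wells numbered 10, and 1 with at least 500 UMIs per well, 0 with thinning, 6 in blocks 1 to 5, 5 in blocks 6 to 11 and 0 with a minimum of 100 UMIs. By zone of pairs the 1 called gene (Sort1) became 4 between outer sixths, 3 with the other denominator, 2 with median-of-ratios size factors, 2 with pairs thinned to 2000 UMIs, 3 with zones within blocks, 2 with no minimum, 2 with landmarks without Alb, 2 without the 2 small blocks and 7 at 1.5-fold, and 1 to 2 with each block left out in turn. The cause of these shifts was not tested beyond the fewer UMIs that thinning and higher minimums leave. Of 270 zone values of single receptors in pairs, 252 moved by less than their counting interval, 17 moved further and 1 reversed: Stab2, at -0.0026 on the log2 scale with median-of-ratios size factors. A sign change counted as reversed only where the main interval excluded 0. Among the other genes, the log2 ratio in pairs also changed sign for Stab1 (to -0.27), Mrc1 (to 0.19), Scarf1 (to -0.08) and Cd209b (to 0.24). In single wells by position it did so for Stab1, Mrc1, Scarf1 and Clec4g, and against Kupffer-like wells for Colec12. Of the 80 and 60 values in the class comparisons 7 and 5 moved, and of 44 in single wells by position 8 moved. No paired analysis was possible because the wells carry no mouse label, and for the same reason no mouse could be left out. The alternative with another set of hepatocyte landmark genes was not run. Settings in which a gene held 0 UMIs in a group gave it no ratio. Alternatives by block, without Alb, at 1.5-fold for the 10 receptors, without endothelial or Kupffer marker UMIs and with tertiles within position bins were chosen after seeing the data. Depth limits Cd209b and Colec12 in single wells, and Msr1 in pericentral groups, to a few UMIs.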
